A study of Drosophila melanogaster with 18 samples.

Results

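Wing imaginal discs of Drosophila melanogaster that expressed a dominant negative form of the acetyltransferase Tip60 (Tip60dn) were compared between 78 h and 48 h of transgene expression. The comparison rests on 6 of the 18 libraries of the series, the 3 Tip60dn replicates of each duration, and covers every gene that passed the filter on low counts. Larvae of all groups received a heat shock of 30 min at 37 °C that induced overlapping clones, were held at 18 °C to keep the transgene off, and were moved to 28 °C for the last 48 h or 78 h before they were dissected as wandering larvae of the L3 stage. The other 12 libraries came from discs that expressed wild type Tip60 (Tip60wt) and from a control arm, with 3 libraries for each arm and duration. Each library was made from polyadenylated RNA of 40 pooled discs. The labels describe all arms by what was expressed, and the driver, the genotype of the control arm and the share of cells that carried the transgene are not stated in the labels. Counts of the 48 h and the 78 h libraries lie in separate tables, so that duration and any difference between the tables cannot be told apart. The same 78 h against 48 h difference in the control and Tip60wt discs, which share no library with it, is therefore given beside the called genes.

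Tip60 is the catalytic subunit of the NuA4 complex, which acetylates histones H4 and H2A and variant H2A and takes part in transcription and DNA repair. A dominant negative form is made so that it interferes with the endogenous enzyme. The wing disc is an epithelial sac of dividing cells in the larva that later forms the adult wing and much of the thorax. Its cells break down sugar by glycolysis, and Drosophila larvae use lactate dehydrogenase to keep glycolysis running during growth.

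Library totals of the Tip60dn arm ran from 65277725 to 105716567 counts, which were also the lowest and the highest of the series. The lowest belonged to replicate 3 of 48 h and the highest to replicate 1 of 78 h. Levels are given as counts for each 1e+06 counts of a library (CPM), after TMM scaling of library sizes, with the standard deviation (SD) over 3 libraries where a mean is printed. The distance between 2 libraries, as the root mean square difference of log2 CPM, averaged 0.72 within a duration and 0.73 between durations of the Tip60dn arm. In the control arm it averaged 0.59 within and 0.65 between, and in the Tip60wt arm 0.71 within and 0.70 between. Over all genes, Tip60dn libraries of 1 duration thus lay about as far from each other as from those of the other duration. Replicate 2 of Tip60dn 78 h stood apart from the rest on the third principal component (-49.61, against 8.61 and 16.60 in the other replicates of 78 h), and its distances reached 0.88 within its group and 1.03 to the 48 h libraries. The tissue label was checked against 14 wing disc epithelium genes, whose summed level was 3613 to 3954 CPM at 48 h and 3642 to 4054 CPM at 78 h. Among them, nub ran from 336 to 382 CPM and vg from 217 to 264 CPM in the 6 Tip60dn libraries.

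The transgene was checked first. Reads that counted to Tip60 came to 3346, 3269 and 2514 CPM in Tip60dn replicates 1, 2 and 3 of 48 h and to 1642, 2171 and 2427 CPM in replicates 1, 2 and 3 of 78 h. All 6 libraries lay far above the control discs, which averaged 33.7 CPM at 48 h and 38.9 CPM at 78 h, while Tip60wt discs averaged 1627 and 1577 CPM. The counts cannot tell the dominant negative transcript from the wild type one. The 78 h libraries were below all 48 h libraries, with a log2 fold change of -0.55 (standard error, SE, 0.21), but the adjusted p was 0.455 by the edgeR quasi-likelihood test. A pair of genes picked with their values in view were, like Tip60, higher in replicates 1 and 2 of 48 h than in any other Tip60dn library and lowest in replicate 1 of 78 h. Diap1, the inhibitor of apoptosis, had 2932, 2987 and 2380 CPM at 48 h and 1731, 2135 and 2374 CPM at 78 h (adjusted p = 0.494). Hsp70Bb, a gene for the inducible chaperone Hsp70, had 1788, 1634 and 1298 CPM at 48 h and 825, 1001 and 1116 CPM at 78 h (adjusted p = 0.482). Control discs held 1473 and 1154 CPM of Diap1 and 563 and 393 CPM of Hsp70Bb at 48 h and 78 h. Gene counts cannot show whether reads from the transgene construct or from a co-expressed gene were counted to Diap1 or Hsp70Bb. The part of the lower Tip60 transcript level in the results that follow was not tested.

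Few genes were called between the durations. Of 11173 genes tested, 15 were called in Tip60dn discs, which is 0.134%, with 6 higher and 9 lower at 78 h. A call is an adjusted p under 0.05 by the edgeR quasi-likelihood test with Benjamini-Hochberg adjustment over all genes tested. The median size of their changes, without regard to sign, was 0.59 on the log2 scale, and 6 of them, 5 higher and 1 lower, changed by more than a log2 unit. At an unadjusted p under 0.05 there were 920 genes, or 8.23%. The 95% interval of the change lay within 1 log2 unit of 0 for 73.2% of genes and within 0.5 for 60.7%, so that for most genes a change of more than 2-fold was outside the interval. The 3 libraries of 78 h did not overlap the 3 of 48 h in 1404 genes, or 12.6%, with 686 higher and 718 lower, and all 15 called genes were among these. The labels say that discs were pooled within each replicate and do not say that replicates came from separate crosses, so the p-values measure the spread between these libraries.

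**Figure D1:**
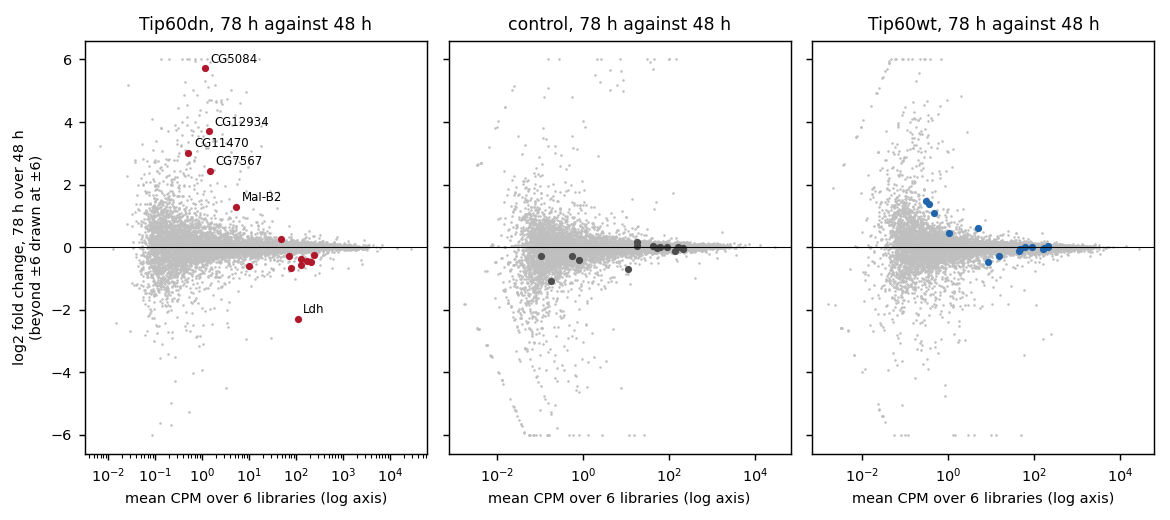
Log2 fold change of every tested gene between 78 h and 48 h (y axis) against its mean CPM over the 6 libraries of the arm (x axis, log scale) in Tip60dn, control and Tip60wt discs, with the 15 genes called in Tip60dn discs in colour in each panel. Ldh lies lowest, at -2.29, and CG5084 highest, at 5.73, of the called genes in Tip60dn discs, and in control discs they lie at -0.69 and -1.08.

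The control arm showed no call for the same comparison. The edgeR quasi-likelihood test called 0 genes in control discs, with 568 genes (5.08%) at an unadjusted p under 0.05, and 0 in Tip60wt discs, with 455 genes (4.07%). DESeq2 called 24 and 6 genes in these arms, against 105 in Tip60dn discs, and limma-voom called 0 and 0, against 11. The libraries of the durations did not overlap in 12.2% of genes in control discs, close to the 12.6% in Tip60dn discs, and in 6.44% in Tip60wt discs. The difference of the Tip60dn change from the control change, tested as an interaction, gave 0 calls by edgeR, with 777 genes (6.95%) at an unadjusted p under 0.05 and a smallest adjusted p of 0.128. Against the Tip60wt change it also gave 0, with 623 genes (5.58%) and a smallest adjusted p of 0.126. By DESeq2 these interactions had 31 and 12 calls and by limma-voom 0 and 0. With all libraries in the fit, no gene is therefore shown by edgeR to have changed differently in Tip60dn discs than in either other arm. The mean change over the 3 arms was called for 3 genes, or 0.0269%, all higher at 78 h.

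The number of calls depended on single libraries. Without replicate 1, 2 or 3 of Tip60dn 48 h it was 3, 0 or 35, and without replicate 2 or 3 of Tip60dn 78 h it was 1 or 7. Libraries outside the comparison that enter the same fit also moved it, in both directions. It fell to 7 without replicate 3 of control 78 h and to 9 without replicate 1 or 3 of Tip60wt 48 h. Without replicate 1, 2 or 3 of Tip60wt 78 h it was 9, 9 or 8. It rose above 15 without replicate 2 or 3 of control 48 h or replicate 2 of Tip60wt 48 h. With only the 6 Tip60dn libraries in the fit, edgeR called 2 genes, neither among the 15, and with only the 12 Tip60dn and control libraries it called 4.

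**Figure D2:**
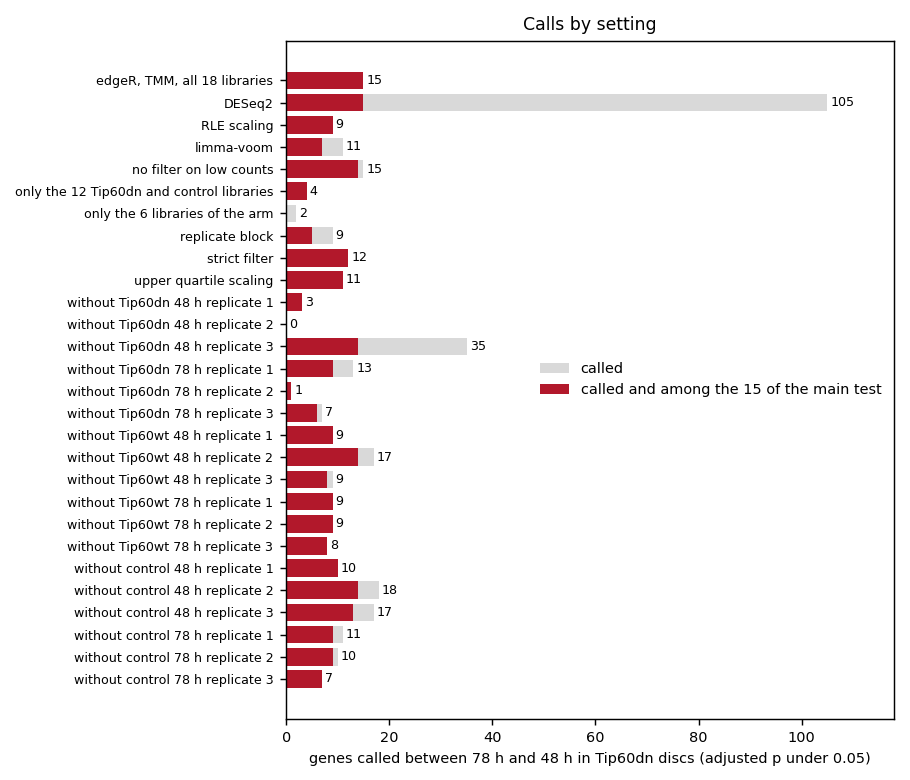
Number of genes called between 78 h and 48 h in Tip60dn discs (x axis) under each setting of the test (y axis), with the part shared with the 15 genes of the main test in red. The count runs from 0 without replicate 2 of Tip60dn 48 h to 105 with DESeq2, and leaving out replicate 3 of Tip60dn 48 h gives 35 calls, of which 14 are among the 15.

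Of the 9 lower calls, 3 were members of the glycolysis and lactate list. Pfk (FBgn0003071, chromosome arm 2R, 10109740 to 10117457, plus strand, in BDGP6), the phosphofructokinase of the committed step of glycolysis, had 169, 164 and 136 CPM at 48 h and 107, 109 and 99.1 CPM at 78 h. Every 78 h library was thus below every 48 h library. Pfk fell by 0.58 on the log2 scale (SE 0.07, adjusted p = 0.00880, edgeR). Control discs held 159 CPM at both durations and Tip60wt discs 162 and 155 CPM, so that Tip60dn discs were near the other arms at 48 h and below them at 78 h. The Pfk change differed from the control change by -0.58 (95% interval -0.80 to -0.36), with an adjusted p of 0.128. Pfk remained called under 25 of 27 other settings, the most of the 15 genes. Many of these settings left out only a control or Tip60wt library and kept all 6 Tip60dn libraries. It was not called with only the 6 Tip60dn libraries in the fit or without replicate 2 of Tip60dn 48 h (adjusted p = 0.109, edgeR).

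Ldh (FBgn0001258, 3L, 6259105 to 6262694, minus strand), the lactate dehydrogenase that turns pyruvate into lactate, had the largest fall of the 15 called genes. Its level was 212, 246 and 84.5 CPM at 48 h and 49.4, 31.6 and 29.7 CPM at 78 h, a mean of 181 ± 85.0 against 36.9 ± 10.9 CPM (SD, n = 3). Replicate 3 of 48 h was well below the other replicates of 48 h and still above all 78 h libraries. The log2 fold change was -2.29 (SE 0.41, adjusted p = 0.0435, edgeR), and the call was kept under 10 of 27 other settings. Control discs held 13.6 and 8.47 CPM at 48 h and 78 h and Tip60wt discs 10.0 and 7.12 CPM, so Tip60dn discs had more Ldh than either arm at both durations. The control change was -0.69 (adjusted p = 0.984), and the difference of the changes was -1.60 (95% interval -2.82 to -0.39, adjusted p = 0.589).

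Men (FBgn0002719, 3R, 12713103 to 12722442, minus strand), the malic enzyme that turns malate into pyruvate with formation of NADPH, was likewise lower in every 78 h library than in any 48 h library. It had 98.4, 109 and 77.3 CPM at 48 h and 58.7, 62.4 and 58.4 CPM at 78 h. It fell by 0.67 (SE 0.10, adjusted p = 0.0133, edgeR), and its mean went from 2.23-fold to 1.38-fold that of control discs, which held 42.5 and 43.4 CPM. Tip60wt discs held 47.0 and 42.9 CPM. The difference from the control change was -0.70 (adjusted p = 0.247).

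The list of glycolysis and lactate genes had 19 members tested, of which 3 were called, all lower, against 0.134% of all genes. The list's median change was -0.08, against 0.00 over all genes and 0.01 for the same list in control discs. In 9 of the 19 the libraries did not overlap with 78 h lower and in 1 with 78 h higher, which is 52.6% against 12.6% of all genes, and against 6.43% for the lower direction. The 3 called genes are among these 9. The list was chosen with earlier results of these data known, so these shares are a description and not an independent test. The uncalled members that follow were picked with their values in view. The aldolase Ald1 had 392, 403 and 331 CPM at 48 h and 285, 296 and 293 CPM at 78 h (log2 fold change -0.37, adjusted p = 0.0916). The enolase Eno had 447, 453 and 450 CPM and then 383, 393 and 381 CPM (-0.22, adjusted p = 0.238). Both were lower in all 78 h libraries, and neither passed the test. The values of Gapdh1, Gapdh2 and Pgi were of the same sign and smaller, at -0.17, -0.19 and -0.15, with adjusted p between 0.237 and 0.312. Hexokinase Hex-A, at 0.04, Pgk, at -0.02, and the hypoxia factor sima, at -0.02, were near 0. The glycerol phosphate dehydrogenase Gpdh1 was at 0.12 (adjusted p = 0.448) and was the 1 member that was higher in all 78 h libraries.

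**Figure D3:**
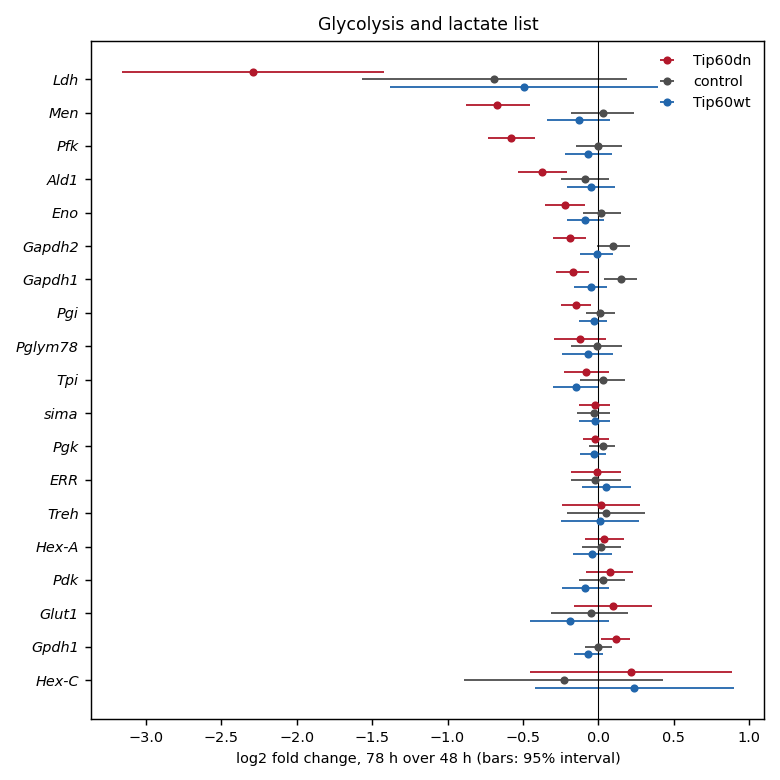
Log2 fold change between 78 h and 48 h with its 95% interval (x axis) for the 19 tested genes of the glycolysis and lactate list (y axis) in Tip60dn, control and Tip60wt discs. Ldh, Men and Pfk, at -2.29, -0.67 and -0.58 in Tip60dn discs, are the called ones, and their intervals in the other arms include 0.

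The other 6 lower calls had varied roles. Glyp (2L, 2130813 to 2137296, plus strand), the glycogen phosphorylase that releases glucose phosphate from glycogen, had 215, 196 and 179 CPM at 48 h and 142, 153 and 143 CPM at 78 h. It fell by 0.43 (SE 0.08, adjusted p = 0.0469, edgeR), while control discs held 212 and 206 CPM and Tip60wt discs 204 and 205 CPM. Like Pfk, it was near the other arms at 48 h and below them at 78 h. SREBP (3L, 19793935 to 19798979, plus strand), a transcription factor of lipid synthesis, had 266, 273 and 264 CPM at 48 h and 228, 223 and 231 CPM at 78 h. This was a small change with little spread, -0.24 (SE 0.03, adjusted p = 0.00880), from above the control means of 210 and 203 CPM and the Tip60wt means of 204 and 209 CPM toward them. MFS3 (2L, 1143201 to 1147395, plus strand), a transporter of the major facilitator superfamily, had 278, 257 and 217 CPM at 48 h and 173, 183 and 185 CPM at 78 h (-0.47, SE 0.08, adjusted p = 0.0357). Control discs held 141 and 129 CPM of it and Tip60wt discs 167 and 163 CPM.

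FeCH (3R, 31810460 to 31812296, minus strand), the ferrochelatase that inserts iron in the last step of heme synthesis, had 81.8, 79.5 and 71.1 CPM at 48 h and 65.2, 64.6 and 63.5 CPM at 78 h. Its change was -0.27 (SE 0.05, adjusted p = 0.0435, edgeR), to near the 61.5 CPM of control discs at 78 h, which held 61.3 CPM at 48 h, while Tip60wt discs held 60.2 and 60.8 CPM. Grx3 (2L, 13366447 to 13367410, plus strand), a glutaredoxin, had 162, 154 and 124 CPM and then 116, 112 and 106 CPM (-0.39, SE 0.07, adjusted p = 0.0469), against 89.9 and 90.8 CPM in control discs and 88.9 and 89.8 CPM in Tip60wt discs. CG11409 (X, 1329518 to 1341587, minus strand), for which no role is given here, had 11.9, 12.7 and 11.3 CPM and then 8.87, 7.57 and 7.40 CPM (-0.59, SE 0.10, adjusted p = 0.0435). It lay below the control discs, at 17.3 and 17.9 CPM, at both durations, and its 78 h libraries were also below the 48 h ones in Tip60wt discs, with means of 17.0 and 14.0 CPM.

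Set against the other arms, 6 of the 9 lower genes (Ldh, Men, SREBP, MFS3, FeCH and Grx3) had a Tip60dn mean above both control means at 48 h and a lower one, still above both, at 78 h. The other 3, Pfk, Glyp and CG11409, ended below the control means. In all 9 lower genes replicate 3 was the lowest library of 48 h. Leaving it out raises their 48 h mean, so that fit cannot test whether they fell more than in control discs. With all libraries, the difference from the control change gave 0 calls by edgeR, with a smallest adjusted p of 0.128. DESeq2 with all libraries called it for Pfk (adjusted p = 2.38e-04), Men (0.00341), CG11409 (0.0359) and SREBP (0.0410). It did not call Ldh, MFS3, FeCH, Glyp or Grx3. Without replicate 3 of Tip60dn 48 h, 7 genes over all passed by edgeR, Grx3, Pfk and Men among them. The adjusted p was 0.00522 for each of these 3. Among the 18 edgeR fits that each left out a different library, 2 gave any call for this difference. Of the 15 called genes, 0 had an unadjusted p under 0.05 for the control change and 4 for the Tip60wt change.

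**Figure D4:**
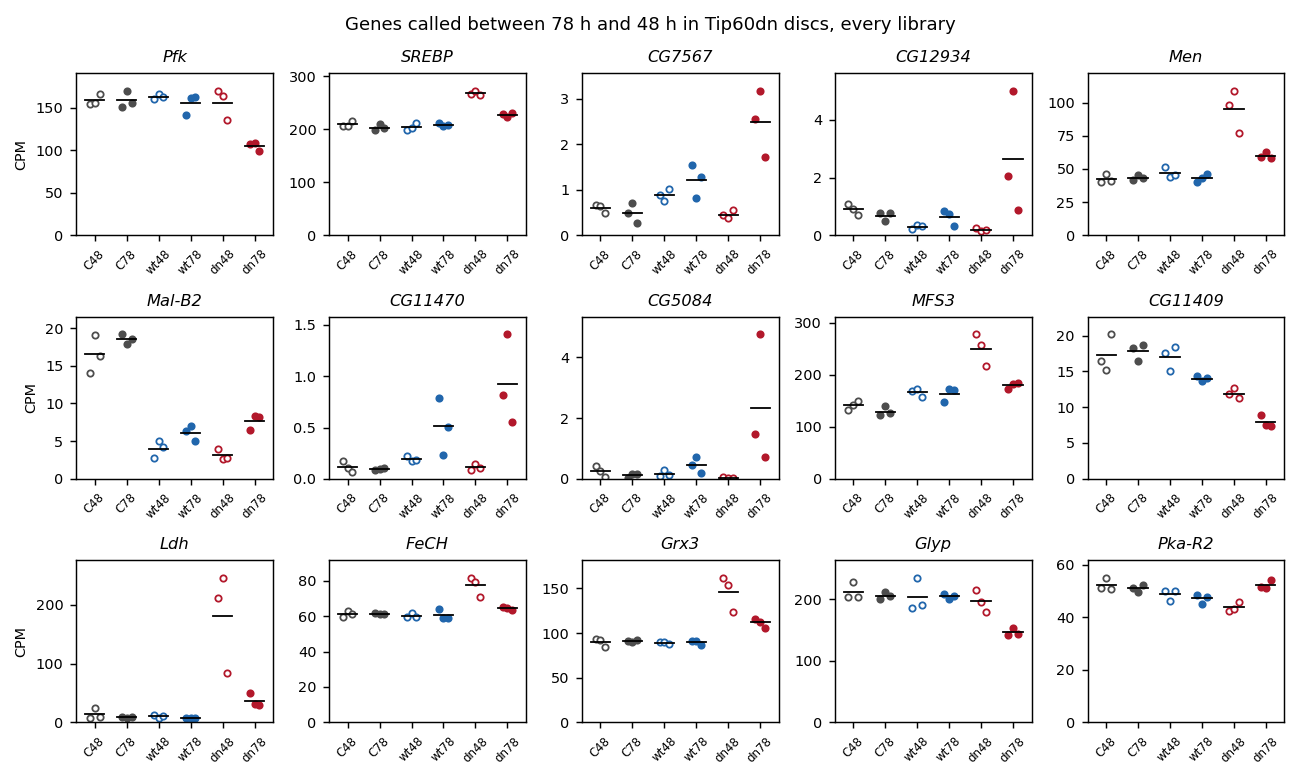
CPM (y axes, from 0) of the 15 called genes in every library of the control (C), Tip60wt (wt) and Tip60dn (dn) arms at 48 h (open points) and 78 h (filled points), with group means as black bars and replicates 1 to 3 from left to right. Ldh, Men, SREBP, MFS3, FeCH and Grx3 are highest in Tip60dn discs at 48 h, while Pfk and Glyp are lowest in Tip60dn discs at 78 h.

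Of the genes that rose, 2 averaged 5 CPM or more over the Tip60dn libraries of 78 h. Mal-B2 (2L, 11849958 to 11852881, plus strand), a maltase, which splits glucose from sugars, had 3.95, 2.58 and 2.79 CPM at 48 h and 6.46, 8.40 and 8.16 CPM at 78 h. It rose 2.47-fold, by 1.30 on the log2 scale (SE 0.21, adjusted p = 0.0218, edgeR). Control discs held more, 16.5 and 18.6 CPM, and Tip60wt discs 4.00 and 6.14 CPM, again with no overlap between the durations. Pka-R2 (2R, 9993890 to 10026042, minus strand), a regulatory subunit of the cyclic AMP dependent protein kinase, had 42.3, 43.1 and 45.9 CPM and then 51.5, 51.1 and 54.2 CPM. Its rise of 0.26 (SE 0.05, adjusted p = 0.0469) brought it from below the control mean of 52.2 CPM at 48 h to 52.3 CPM, against 50.9 CPM in control discs at 78 h.

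The other 4 genes that rose lay under 5 CPM in every library apart from 1 value, carry no role here and were named after their values were seen. CG7567 (3R, 29587237 to 29588104, minus strand) had 0.441, 0.372 and 0.552 CPM at 48 h and 2.56, 3.18 and 1.72 CPM at 78 h, from 104 counts in all and 635 counts. Its log2 fold change was 2.45 (SE 0.34, adjusted p = 0.00880, edgeR). Its neighbour CG11470 (3R, 29588993 to 29589762, same strand) had 0.0883, 0.141 and 0.110 CPM and then 0.820, 1.41 and 0.556 CPM (3.02, SE 0.48, adjusted p = 0.0218). CG12934 (2R, 10648888 to 10649830, plus strand) had 0.254, 0.154 and 0.189 CPM and then 2.04, 5.02 and 0.871 CPM (3.71, SE 0.55, adjusted p = 0.0133). CG5084 (2R, 18018665 to 18020211, plus strand) had 0.0662, 0.0257 and 0.0316 CPM, from 10 counts in the 3 libraries, and then 1.47, 4.77 and 0.720 CPM (5.73, SE 0.97, adjusted p = 0.0357). In the order CG7567, CG11470, CG12934 and CG5084, the changes were -0.29, -0.29, -0.40 and -1.08 in control discs and 0.46, 1.38, 1.08 and 1.47 in Tip60wt discs. None of these was called.

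All 4 were highest in replicate 2 of 78 h, the library that stood apart. That library also held the most RNA of 39 digestive and peritrophic genes of the midgut, a list put together after the values were seen. Their summed level ran from 5.07 CPM in replicate 3 of 48 h to 168 CPM in replicate 1 of 48 h and was 8.70, 456 and 25.0 CPM in replicates 1, 2 and 3 of 78 h, and Peritrophin-15b was at 0 in all 3 libraries of both groups. None of the list's 29 tested members was called by edgeR. At an unadjusted p under 0.05, 14 of them were higher, against 8.23% of all genes in either direction. Only 1 (3.45%, against 12.6% of all genes) did not overlap between the durations. The list's median change was 2.90 in Tip60dn, -3.57 in control and 2.87 in Tip60wt discs. Single libraries weighed on these medians, as the Tip60wt sums at 78 h were 4.18, 58.0 and 5.71 CPM in replicates 1, 2 and 3. CG12934 was at 0.254 CPM in replicate 1 of 48 h, where the midgut sum was 168 CPM. It was at 2.04 CPM in replicate 1 of 78 h, where the sum was 8.70 CPM, and both were highest in replicate 2 of 78 h. The part of midgut RNA in the rise of the 4 genes was not tested. Without replicate 2 of 78 h, the changes of CG7567, CG11470, CG12934 and CG5084 were 2.23, 2.59, 2.86 and 4.65, with adjusted p of 0.0548, 0.145, 0.0548 and 0.145 by edgeR, so that none was called, and Pfk was the 1 gene that was.

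Lists of genes for cell division, for which the series set out to test Tip60, held no called member. Of 37 DNA replication genes, 48 mitosis genes and 24 cell cycle regulators, 0 were called by edgeR in either direction, with 0, 0 and 2 at an unadjusted p under 0.05. Their median changes were -0.01, 0.03 and 0.02, against 0.00 over all genes. The 95% interval of every member of these 3 lists lay within 0.5 of 0 on the log2 scale. CycE, the cyclin that drives entry into S phase, had 80.7, 83.3 and 92.9 CPM at 48 h and 84.9, 89.9 and 95.1 CPM at 78 h. CycB, a mitotic cyclin, had 266, 271 and 297 CPM and then 326, 282 and 293 CPM, below the control means of 407 and 420 CPM at both durations. For both cyclins the libraries of the durations overlapped.

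Genes for cell death, wound signalling and stress also gave no call. The lists held 16 apoptosis genes, 25 genes of TNF, JNK and regeneration, 13 of JAK/STAT and 18 of the Xrp1 and ATF4 response, with medians of 0.02, 0.02, 0.01 and -0.10. The ligand gene egr, the TNF of flies, had 20.7, 21.4 and 18.3 CPM at 48 h and 18.5, 20.6 and 21.0 CPM at 78 h, with means 2.18-fold and 2.27-fold those of control discs, 9.26 and 8.81 CPM. Xrp1, a transcription factor of the stress response, had 809, 900 and 757 CPM and then 833, 726 and 672 CPM (log2 fold change -0.14, 95% interval -0.38 to 0.09). The relaxin-like hormone gene Ilp8 had 5.62, 8.06 and 1.51 CPM and then 4.41, 1.37 and 1.31 CPM, a spread that left an interval of -2.78 to 0.59. Where replicates varied this much, a change of several fold was not detectable. The pseudokinase gene trbl, at 107, 131 and 101 CPM and then 93.5, 87.7 and 94.5 CPM, had the smallest adjusted p of the Xrp1 and ATF4 list, 0.237.

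**Figure D5:**
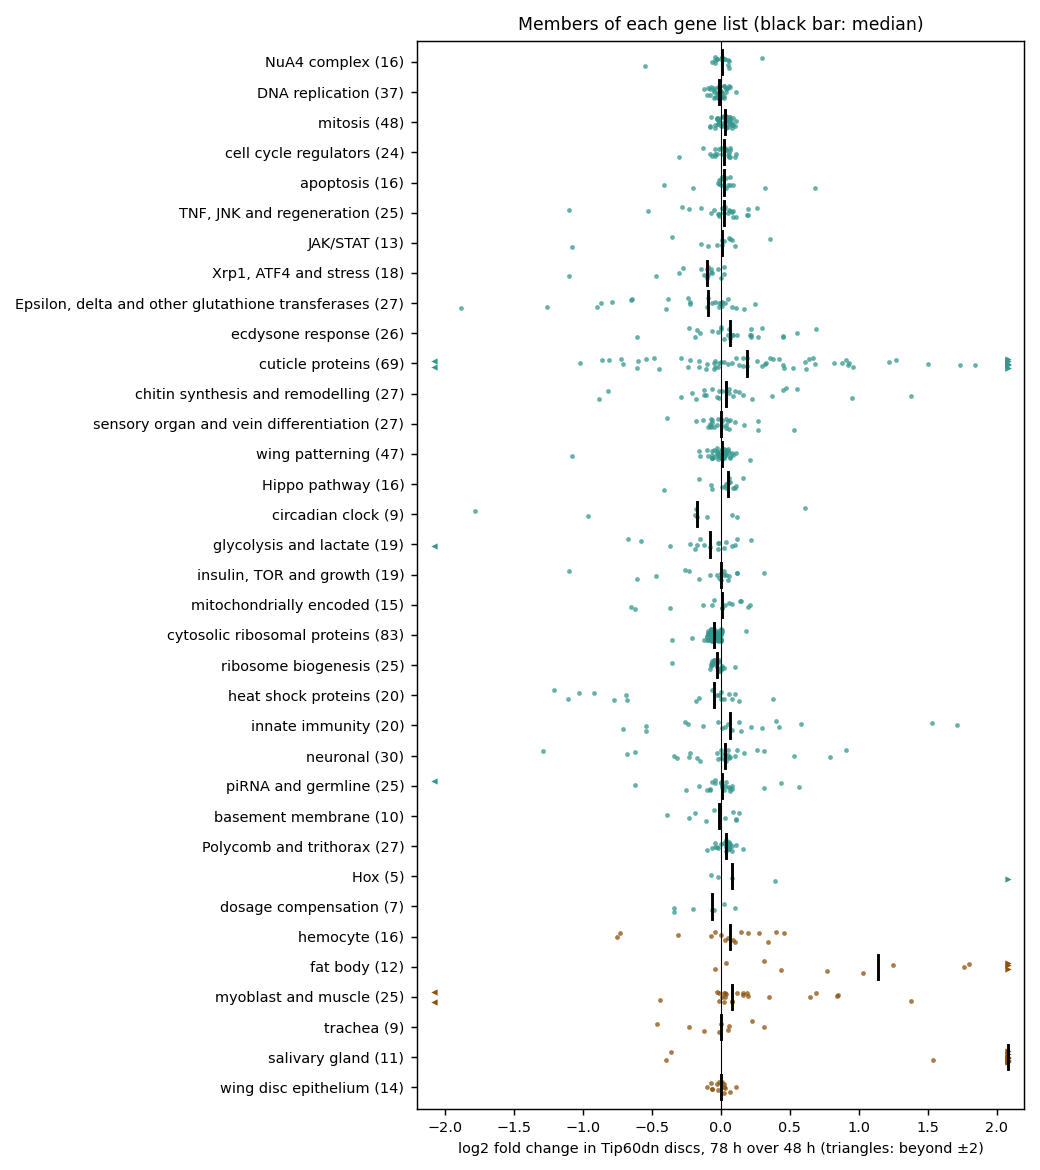
Log2 fold change in Tip60dn discs between 78 h and 48 h (x axis, values beyond 2 drawn as triangles at the edge) of every tested member of 35 gene lists (y axis, number tested in brackets), with biological lists in green, tissue lists in brown and medians as black bars. Medians of the biological lists lie between -0.17 and 0.19, and those of the fat body and salivary gland lists at 1.14 and 2.56.

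Patterning, growth and chromatin lists also had medians near 0. No member was called among 47 wing patterning genes (median 0.01), 16 of the Hippo pathway (0.05), 83 of cytosolic ribosomal proteins (-0.05), 27 Polycomb and trithorax genes (0.04) and the 16 NuA4 subunits (0.01). Of the 83 cytosolic ribosomal protein genes, 78 had a change below 0 and 5 above, mostly small, and their median in control discs was 0.03. For all 27 Polycomb and trithorax genes the 95% interval lay within 0.5 of 0. Secreted products and detoxification genes spread more widely, as for 69 cuticle proteins (median 0.19, from -4.97 to 8.13) and 27 glutathione transferases (-0.09, from -1.88 to 0.25), again with 0 calls. GstE1, the glutathione transferase with the smallest adjusted p, had 15.8, 17.2 and 10.0 CPM at 48 h and 9.49, 9.36 and 8.60 CPM at 78 h (-0.65, adjusted p = 0.175, edgeR). Across the 35 lists, which were chosen with earlier results of these data known, the glycolysis and lactate list was the 1 with called members.

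Markers of other tissues were summed in each library, and in bulk RNA fewer cells of a type and less RNA per cell cannot be told apart. The 16 hemocyte genes found came to 832, 810 and 913 CPM at 48 h and 625, 888 and 863 CPM at 78 h, and Hml, a hemocyte clotting protein, to 170, 142 and 208 CPM and then 60.7, 177 and 182 CPM, with replicate 1 of 78 h the lowest. The 25 myoblast and muscle genes came to 3043, 3454 and 3641 CPM and then 3308, 3563 and 3557 CPM, and the 9 trachea genes to 2430, 2744 and 2411 CPM and then 3012, 2589 and 2622 CPM. These sums overlapped between the durations. The trachea genes serp, verm, Gasp and obst-A are also on the list for chitin synthesis and remodelling, so the trachea sum need not come from trachea alone. No member of any tissue list was called.

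Fat body and salivary gland genes were the exception among the sums. The 12 fat body genes came to 346, 340 and 295 CPM at 48 h and to 402, 679 and 408 CPM at 78 h, and the 13 salivary gland genes to 37.5, 44.5 and 24.6 CPM and then 50.0, 152 and 167 CPM, both without overlap. Control discs showed no overlap for the fat body sum either, at 475, 378 and 334 CPM and then 609, 527 and 762 CPM, while in Tip60wt discs it ran from 314 to 3344 CPM and then from 358 to 591 CPM. Fbp1, the receptor for larval serum proteins in the fat body, stood at 19.8, 20.4 and 17.5 CPM at 48 h and at 64.6, 68.9 and 62.5 CPM at 78 h. This was a change of 1.76 on the log2 scale with little spread among Tip60dn replicates, against 1.73 in control discs and -2.79 in Tip60wt discs, but the shared fit gave an adjusted p of 0.748, and Fbp1 ran from 5.12 to 1198 CPM in the Tip60wt 48 h libraries. With only the 6 Tip60dn libraries in the edgeR fit it was called (adjusted p = 2.13e-04), together with whd, the carnitine palmitoyltransferase of fatty acid oxidation (adjusted p = 0.0474). For whd the levels were 68.6, 69.9 and 65.3 CPM at 48 h and 90.8, 91.2 and 91.7 CPM at 78 h, against 84.7 and 85.3 CPM in control discs (0.43, adjusted p = 0.0636 in the fit of 18 libraries). The glue protein gene Sgs3 of the salivary gland had 3.82, 4.43 and 2.30 CPM and then 10.3, 32.4 and 56.9 CPM (adjusted p = 0.476), while the salivary gland sum of control discs was 17.0 to 24.1 CPM at 48 h and 35.4 to 2864 CPM at 78 h. Within 78 h the fat body sum ran from 402 to 679 CPM, Pfk from 99.1 to 109 CPM and Men from 58.4 to 62.4 CPM. These 3 libraries are too few to relate the levels to each other. The part of fat body and salivary gland RNA in the called changes was not tested.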

How the data were processed

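Per the submitters' processing notes, the tools were FastQC, featureCounts, edgeR 3.13.4 and limma, with build BDGP6. The sources used here do not give the aligner, annotation release or strand setting. The deposited values are whole-number read counts per FlyBase gene, 1 table for each duration, from directional libraries per the labels' protocols. The tables were joined on gene identifier (17559 genes). Symbols and coordinates came from Ensembl release 115 for 17253 identifiers, and the other 306 held 5.69% to 6.01% of a library's counts.

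A single model over all 18 libraries, with a mean for each of the 6 groups, was fitted in R 4.3.3 with edgeR 4.0.16 (filterByExpr, minimum count 10, TMM scaling, quasi-likelihood test, two-sided, Benjamini-Hochberg), with a common biological coefficient of variation of 0.20. DESeq2 1.42.0 and limma 3.58.1 served as alternatives. The pipeline was tested on simulated data. No 2 replicates agreed within sampling noise.

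Genes were named by rule: Tip60, called genes of at least 5 CPM without overlap (up to 10 in each direction), up to 3 called members of each biological list, and the 3 highest members of each tissue list. Every other gene was picked with its values in view. The libraries compared and the 35 gene lists, with 948 of 989 entries matched, were chosen with earlier results of these data known, and 5 lists were added later.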

Additional observations from a re-analysis of the deposited data

How the results depend on the processing

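No sign was reversed in the genes and settings tried. The 15 calls of the Tip60dn change came to 105 with DESeq2 (60 higher, 45 lower, all 15 among them), 9 with RLE scaling, 11 with upper quartile scaling, 11 with limma-voom, 12 with at least 1 CPM in at least 3 libraries, 15 with no filter, 2 with only the 6 Tip60dn libraries and 4 with only the 12 Tip60dn and control libraries, the last chosen after seeing the data. Leaving out 1 library at a time gave 0 to 35 calls for the Tip60dn change, 0 to 10 for the control change, 0 for the Tip60wt change, 0 to 7 for the difference from the control change and 0 to 8 for the difference from the Tip60wt change. DESeq2 gave 24, 6, 31 and 12 calls for these last 4 comparisons in the same order. With a replicate block the Tip60dn change had 9 calls (3 higher, 6 lower, 5 of them shared). Same-numbered Tip60dn libraries correlated at -0.26, 0.05 and 0.22 in their deviations, none matching its own number best, so the numbers do not pair these libraries by the data, and in control discs the correlations were 0.04, 0.04 and 0.02 with each number matching itself best. Of the 27 other settings, Pfk was called in 25, SREBP and CG7567 in 23, Men and Mal-B2 in 21, Ldh and CG11409 in 10, FeCH in 9, Glyp in 7 and Grx3 and Pka-R2 in 5. The adjusted p of Pfk ran from 7.89e-10 to 0.134. The cause of these differences between settings was not tested.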

Other observations

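The mean change over the Tip60dn, control and Tip60wt arms, a comparison added after seeing the data, was called by edgeR for 3 genes (0.0269% of those tested), all higher at 78 h. A call of the mean does not show a rise in each arm. With all libraries in the fit, edgeR called none of the 3 in any single arm. The gene nrm, which encodes a cell adhesion protein of the immunoglobulin type, had 14.8, 15.1 and 19.7 CPM at 48 h and 21.7, 22.1 and 25.8 CPM at 78 h in Tip60dn discs, with changes of 0.49, 0.43 and 0.44 in the Tip60dn, control and Tip60wt arms. Nnf1b, a kinetochore component, had 4.50, 5.07 and 5.00 CPM and then 6.26, 7.38 and 6.40 CPM, with changes of 0.46, 0.54 and 0.35. For CG10738 the changes were 0.20, 0.78 and 0.57, and its level in Tip60dn discs, 9.72 to 12.4 CPM, was above the control means of 2.07 and 3.55 CPM. Over all genes, the libraries of the durations did not overlap in the same direction in all 3 arms for 5 genes, or 0.0448%, all higher at 78 h. Duration and table cannot be told apart for these genes.

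Some genes of low level were high in 1 Tip60dn library of 48 h. The germline gene bam was at 8.22 CPM in replicate 2 against 0.0441 and 0.237 CPM in replicates 1 and 3, the clock gene Clk at 2.39 against 0.331 and 0.158 CPM, and the cytochrome P450 gene Cyp6a19 at 5.14 against 0.342 and 0.0947 CPM. None of the 3 was called between the durations by edgeR, with adjusted p of 0.623, 0.456 and 0.237.

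The genes nearest to the threshold without a call were CG14598 (log2 fold change -0.78, adjusted p = 0.0542, edgeR), Nnp-1, a gene of ribosome biogenesis (-0.35, 0.0578), and whd (0.43, 0.0636). Nnp-1 had 256, 247 and 209 CPM at 48 h and 193, 184 and 181 CPM at 78 h, against 187 and 193 CPM in control discs.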
